A study of Mus musculus with 3 samples.

Results

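Respiratory complex I is the largest enzyme of the mitochondrial electron transport chain, and the genes described here are its nuclear genes in mouse T-helper 1 (Th1) cells. They were taken as all protein-coding genes whose symbol starts with Nduf, which gave 46 of the 50600 genes in the files, or 46 of 21764 protein-coding genes. Of these, 36 encode structural subunits, 8 encode assembly factors (symbols starting with Ndufaf), and 2 are Nduf genes by name only: Ndufa4, whose product is now assigned to complex IV, and its relative Ndufa4l2. The subunits comprised 7 core subunits, 9 accessory subunits of the matrix arm, 9 of the proximal and 10 of the distal membrane arm, and Ndufab1, which sits in both arms. Ndufb1 was not among the matched symbols and was not analysed here.

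RNA was sequenced in 3 libraries of a single group: primary Th1 cells of strain C57BL/6NJ, differentiated in culture from CD4 T cells, with no genotype or treatment contrast. The labels number them as biological replicates 1, 2 and 3 and give the same donor entry for each, with age and sex not given, so the spread between libraries may be technical in part. The file headers also carry 24 hr, without saying what it times. By its label the assay was total RNA sequencing, but the library protocol cited with it is one for polyA RNA. No source used here names the kit or says whether it preserves strand.

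Complex I takes electrons from NADH, passes them along a chain of iron-sulfur clusters to ubiquinone and pumps protons across the inner mitochondrial membrane. Its matrix arm holds the NADH and quinone sites, and its membrane arm holds the proton channels, which are built around subunits encoded in mitochondrial DNA. The nuclear core subunits carry the flavin and the clusters, the accessory subunits surround them, and assembly factors act during construction and are absent from the finished enzyme. In T cells, mitochondrial respiration is known to increase on activation.

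Promoter windows were available from RefSeq (build GRCm38.p6, 250 bases before to 50 bases after the gene start) for 40 of the 46 genes, in 42 windows. They were searched on both strands for the binding motifs of 4 factors known for nuclear genes of respiration: GCGC, A, any base and GCGC for NRF1, CCGGAAG for ETS factors, AAGATGGC for YY1 and TCAAGGTCA for ERR. YY1 letters were found in 8 windows (19.0%, against 3.11% of 20095 windows of protein-coding genes) and NRF1 letters in 10 windows (23.8%, against 6.61%). The background shares here are over all protein-coding genes, detected or not. Shares over detected genes alone were not computed, so a part of detection in these differences was not tested. The ETS motif was in 6 windows (14.3%, against 11.9%), close to the background share, and the ERR motif in 0 of 42 (against 0.338%). At least 1 motif was present in 22 windows (52.4%, against 19.7%), and the median GC content was 59.3% in the complex I windows and 57.0% in all windows. The motifs of NRF1 and ETS factors occurred together in 0 of 42 windows, against 1.304% of all.

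The YY1 matches are shown because they had the same place and orientation in each of the 8 windows. All read AAGATGGC on the gene's own strand, and their first base lay 10 to 38 bases after the RefSeq start (median 26.5). Sense matches in those 50 bases were present in 19.0% of complex I windows and 1.30% of all windows, and 0 of 42 complex I windows held a match upstream of the start (against 1.498%). Antisense matches in those 50 bases were in 0 of 42 complex I windows and 0.264% of all windows. Sense matches were thus also the more common ones over all windows. The sites are given 5′ to 3′ on the gene's strand with the motif in capitals:
Ndufa3, accessory subunit of the proximal membrane arm, chr7:3617384-3617413, plus strand: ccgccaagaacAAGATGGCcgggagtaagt
Ndufa9, accessory subunit of the matrix arm, chr6:126849097-126849126, minus strand: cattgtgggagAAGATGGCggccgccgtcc
Ndufaf8, assembly factor, chr11:120098933-120098962, plus strand: aggcagggcccAAGATGGCggcgccctcga
Ndufb8, accessory subunit of the distal membrane arm, chr19:44555393-44555422, minus strand: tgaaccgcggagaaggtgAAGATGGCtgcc
Ndufc1, accessory subunit of the proximal membrane arm, chr3:51408915-51408944, minus strand: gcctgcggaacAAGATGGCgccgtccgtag
Ndufs4, accessory subunit of the matrix arm, chr13:114388045-114388074, minus strand: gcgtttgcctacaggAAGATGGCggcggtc
Ndufs6, accessory subunit of the matrix arm, chr13:73328433-73328462, minus strand: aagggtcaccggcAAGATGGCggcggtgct
Ndufs7, core subunit, chr10:80249462-80249491, plus strand: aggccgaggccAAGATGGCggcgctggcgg

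The NRF1 matches are shown because their share was also above the background share, and they lay on both sides of the start, from 191 bases before it to 23 bases after it. The 10 windows held 11 distinct sites in 9 genes, since both windows of Ndufa5 contain the same site. A match on the other strand reads as the reverse complement, with the free base before the T:
Ndufa11, chr17:56717692-56717721, plus strand: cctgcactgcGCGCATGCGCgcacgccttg
Ndufa5, chr6:24527697-24527726, minus strand: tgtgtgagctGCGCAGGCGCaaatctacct
Ndufa6, chr15:82354249-82354278, minus strand: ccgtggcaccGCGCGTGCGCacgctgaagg
Ndufa8, chr2:36049349-36049378, minus strand: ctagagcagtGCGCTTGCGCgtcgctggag
Ndufaf4, chr4:24897960-24897989, plus strand: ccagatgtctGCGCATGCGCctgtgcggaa
Ndufaf5, chr2:140170652-140170681, plus strand: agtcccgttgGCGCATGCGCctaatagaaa
Ndufb4, farthest from the start, chr16:37654540-37654569, minus strand: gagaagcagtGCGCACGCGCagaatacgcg
Ndufb4, middle, chr16:37654428-37654457, minus strand: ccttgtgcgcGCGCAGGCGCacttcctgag
Ndufb4, nearest to the start, chr16:37654371-37654400, minus strand: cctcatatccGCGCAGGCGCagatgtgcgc
Ndufs5, chr4:123718265-123718294, minus strand: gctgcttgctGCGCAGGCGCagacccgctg
Ndufs6, chr13:73328479-73328508, minus strand: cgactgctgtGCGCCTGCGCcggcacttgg
Ndufb4 was the only one of the 9 genes with 3 distinct sites, and Ndufs6 the only one that also held a YY1 match. These are matches of letters in a fixed window, and whether a factor binds there was not measured in these libraries.

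**Figure D1:**
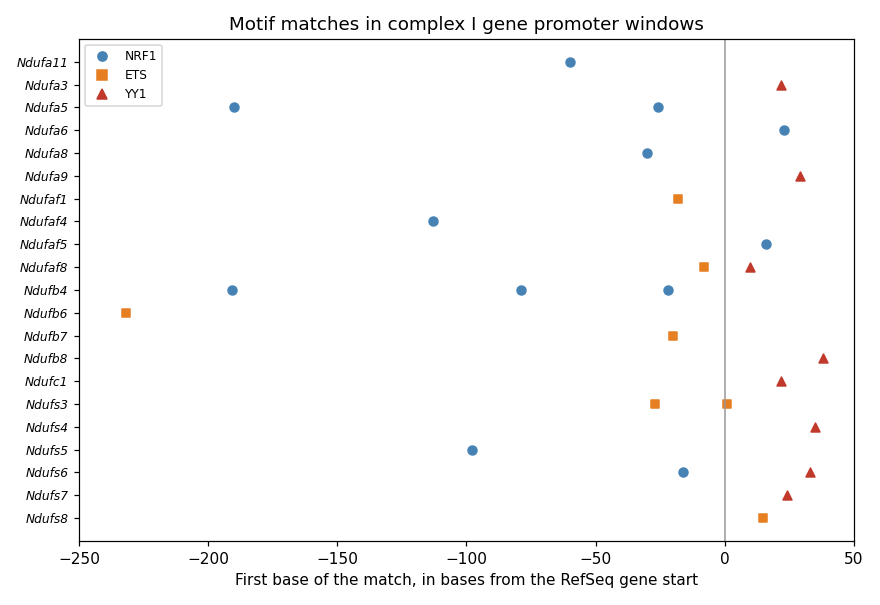
Places of the NRF1, ETS and YY1 letters in the promoter windows of the complex I genes that hold any, 1 row per gene. The horizontal axis is the first base of the match in bases from the RefSeq gene start (grey line), negative before it. The 8 YY1 matches all lie between 10 and 38 bases after the start, while the NRF1 matches spread from -191 to 23. Ndufa5 has 2 NRF1 marks because its windows have different starts and share 1 site.

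Library depth was 3553547, 2945353 and 3369468 counted read pairs in replicates 1, 2 and 3, the order in which all values below are listed. The complex I genes together had 5252, 3246 and 4605 counts, or 1478, 1102 and 1367 CPM (counts scaled to a common library total), lowest in replicate 2. The biological coefficient of variation over 10216 genes was 17.9%. All 10 T cell markers (such as Cd3e, Cd4 and Trac) were detected, with a summed level of 716 to 1178 TPM, as were 3 of 6 Th1 markers. Of the T cell markers, Cd247 (185 ± 5.54 TPM) and Cd3e (21.3 ± 2.78 TPM) overlap Pou2f1 and Gm48719 on the other strand. The other T cell markers share no exon bases with an opposite gene. The 6 Th1 markers together had 23.4 to 25.99 TPM, most of it from Il12rb2 (14.8 ± 2.01 TPM), whose exons overlap Serbp1 on the other strand. Tbx21, which encodes the Th1 factor T-bet, had 15, 11 and 8 counts, and Ifng had 2, 2 and 1. Of the markers of other cells, all 3 for NK cells and all 4 for erythroid cells were at 0, as were Ms4a1 of B cells, Flt3 and Clec9a of dendritic cells and Lyz2 of macrophages. Other members of these lists had counts: Cd79a of B cells had 19, 18 and 22, Xcr1 of dendritic cells 9, 8 and 12, Cd68 of macrophages 22, 6 and 7, and Cd8b1 of CD8 T cells 30, 20 and 36. The summed level was 7.23 to 8.08 TPM for the 4 B cell markers, 1.03 to 1.55 for the 4 dendritic markers and 7.87 to 13.1 for the 2 CD8 markers. For the 4 macrophage markers it was 163 to 169 TPM, nearly all from Csf1r, whose exons overlap Hmgxb3 on the other strand. The part of these cells in the complex I values was not tested.

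All 46 complex I genes were detected, meaning at 1 TPM (counts scaled to exon length and to a common library total) or more in every library, against 41.2% of protein-coding genes. At 5 TPM the number was 41 of 46. The median TPM over the 46 genes was 37.6, 20.5 and 31.7, with a mean of 29.9 ± 8.67 (SD, n = 3), beside 9.77 ± 2.29 over the 8958 detected protein-coding genes. It was lowest in replicate 2, and the member values spanned 2.91 to 125 TPM. In RNA from bulk cells, fewer cells of a type and less RNA per cell cannot be told apart. Of the 46 genes, 37 had a mean above 9.82 TPM, the median of the detected protein-coding genes, comprising 31 of 36 subunits, 5 of 8 assembly factors and Ndufa4.

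Every count here carries a limit from strand. The authors counted with strand option 1, and for the 14 complex I genes that share exon bases with a gene on the other strand, counts cannot be assigned to one gene of the pair. Among these are Ndufs1, Ndufs3, Ndufa2, Ndufa3, Ndufa9, Ndufa13, Ndufb2, Ndufb5, Ndufb6, Ndufb11, Ndufab1, Ndufaf3 and Ndufa4l2. If the library's reads run along the other strand, the counts of the other 32 genes would hold little of their own mRNA. Neither reading was tested.

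Among the core subunits, Ndufs8 was highest and Ndufs1 lowest, and the group median was 32.4 ± 13.6 TPM (SD, n = 3). Ndufs8, which carries a pair of iron-sulfur clusters next to the quinone site (ENSMUSG00000059734, mm10 chr19:3908870-3912717), had 142, 63 and 114 counts, or 77.6, 37.4 and 63.3 TPM. Ndufs3, a core subunit of the quinone module (ENSMUSG00000005510, chr2:90894634-90904827), had 203, 182 and 192 counts and 49.0, 47.8 and 47.2 TPM. In TPM it was the tightest of the core genes, at 48.0 ± 0.948. In TMM-scaled CPM, the library scaling of the test below, Ndufs3 was highest in replicate 2. Its coefficient of variation on that scale was 16.6%, above the 10.7% of Ndufv1. Replicate 2 was lowest for Ndufs8, which had a mean ± SD of 59.4 ± 20.4 TPM.

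Ndufv2 and Ndufv1, core subunits of the NADH-oxidizing tip, had lower mean TPM than Ndufs8 and Ndufs3. Ndufv2, which carries an iron-sulfur cluster beside the flavin, had 167, 61 and 132 counts, or 32.4 ± 13.6 TPM. Ndufv1, which holds the flavin and the NADH site, had 140, 77 and 126 counts, or 24.5 ± 6.19 TPM. The lowest were Ndufs7, which carries the last cluster before ubiquinone, with 61, 35 and 40 counts (14.3 ± 3.85 TPM), and Ndufs1, the largest subunit, with 182, 61 and 142 counts (8.52 ± 3.84 TPM). Ndufs1 was low per length rather than in counts, because its exons in the files add up to 8086 bases.

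In the matrix arm, accessory subunits had a group median of 32.7 ± 5.27 TPM. Ndufa2, a small subunit with a thioredoxin-like fold (ENSMUSG00000014294, chr18:36742332-36744557), was the highest of all subunits, with 129, 104 and 127 counts and 119, 104 and 119 TPM. Ndufs6, a zinc-binding subunit (ENSMUSG00000021606, chr13:73319874-73328542), had 110, 75 and 109 counts and 92.0, 68.2 and 92.7 TPM. Ndufa6, which binds an acyl carrier protein, had 86, 60 and 87 counts and 80.8, 61.3 and 83.1 TPM. In each of these 3 genes replicates 1 and 3 were within 3 TPM of each other and replicate 2 was lower. In TMM-scaled CPM the order differed, and replicate 1 was the lowest in all 3. Ndufa2 was highest in replicate 2 on that scale, at 32.9, 40.1 and 36.6 CPM.

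Ndufa5, a subunit of the quinone module, followed at 56.1 ± 10.5 TPM, and Ndufv3, Ndufs4 and Ndufa12 stood at 31.0 ± 3.16, 29.4 ± 10.01 and 27.8 ± 9.00 TPM. Ndufs4 is known from mice in which its loss causes a disease like Leigh syndrome. Ndufa12 is a relative of the assembly factor Ndufaf2. The lowest of the matrix arm were Ndufa7, with 105, 63 and 91 counts (27.4 ± 5.74 TPM), and Ndufa9, with 142, 50 and 82 counts (23.4 ± 11.2 TPM). Ndufa9 has a fold like that of short-chain dehydrogenases, and its library values, at 35.6, 13.6 and 20.9 TPM, were widely spread.

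In the proximal membrane arm the group median was 36.6 ± 14.8 TPM. Ndufa8, one of the subunits on the intermembrane side with twin cysteine motifs, had 109, 71 and 113 counts, or 66.6, 47.2 and 70.2 TPM. Ndufa1, an X-linked subunit with a membrane helix, had 48, 28 and 58 counts, or 60.3, 38.2 and 74.1 TPM. Ndufa13, also known as GRIM-19, had 142, 81 and 134 counts, or 59.7, 37.0 and 57.3 TPM. Their ranges over the 3 libraries overlapped, and the order among them was not tested. Within libraries, Ndufa8 and Ndufa1 were each above Ndufa13 in every replicate. Ndufa8 was above Ndufa1 in replicates 1 and 2 and below it in replicate 3. Ndufa10, which resembles a nucleoside kinase, had the most counts of any subunit, at 325, 222 and 278, and 44.7 ± 6.61 TPM.

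Ndufc2 and Ndufa3 stood at 36.6 ± 14.8 and 26.1 ± 10.3 TPM. Ndufa3 had 69, 27 and 53 counts. Below them were Ndufc1 at 14.6 ± 2.47 TPM, Ndufs5, another intermembrane-side subunit, with 23, 18 and 19 counts (12.6 ± 1.26 TPM), and Ndufa11, a membrane subunit, with 53, 39 and 41 counts (9.04 ± 1.25 TPM).

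The distal membrane arm had a median of 35.2 ± 3.20 TPM and held the lowest subunit. Ndufb9, which binds the acyl carrier protein of the membrane arm (ENSMUSG00000022354, chr15:58933810-58939489), was highest, with 120, 44 and 71 counts and 97.0, 38.7 and 58.4 TPM, highest in replicate 1. Ndufb11, the other X-linked subunit, had 101, 71 and 83 counts and 58.5, 44.7 and 48.9 TPM. Ndufb6 had 70, 48 and 67 counts and 55.9, 41.7 and 54.4 TPM. Ndufb10, Ndufb3 and Ndufb8, all accessory subunits of this arm, stood at 46.0 ± 11.1, 38.4 ± 2.73 and 32.9 ± 4.05 TPM.

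The remaining genes of the arm were lower. Ndufb7, an intermembrane-side subunit, stood at 14.9 ± 2.59 TPM, and Ndufb5 had 134, 56 and 118 counts (11.1 ± 4.09 TPM). Ndufb2 had 85, 61 and 68 counts (6.87 ± 0.941 TPM). Ndufb4 (ENSMUSG00000022820, chr16:37647170-37654453) was the lowest subunit, with 10, 4 and 5 counts, or 4.50, 1.96 and 2.29 TPM. Ndufab1, the acyl carrier protein of mitochondria, which also serves fatty acid and lipoate synthesis, had 99, 38 and 82 counts over 6883 exon bases, or 5.70 ± 2.28 TPM.

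**Figure D2:**
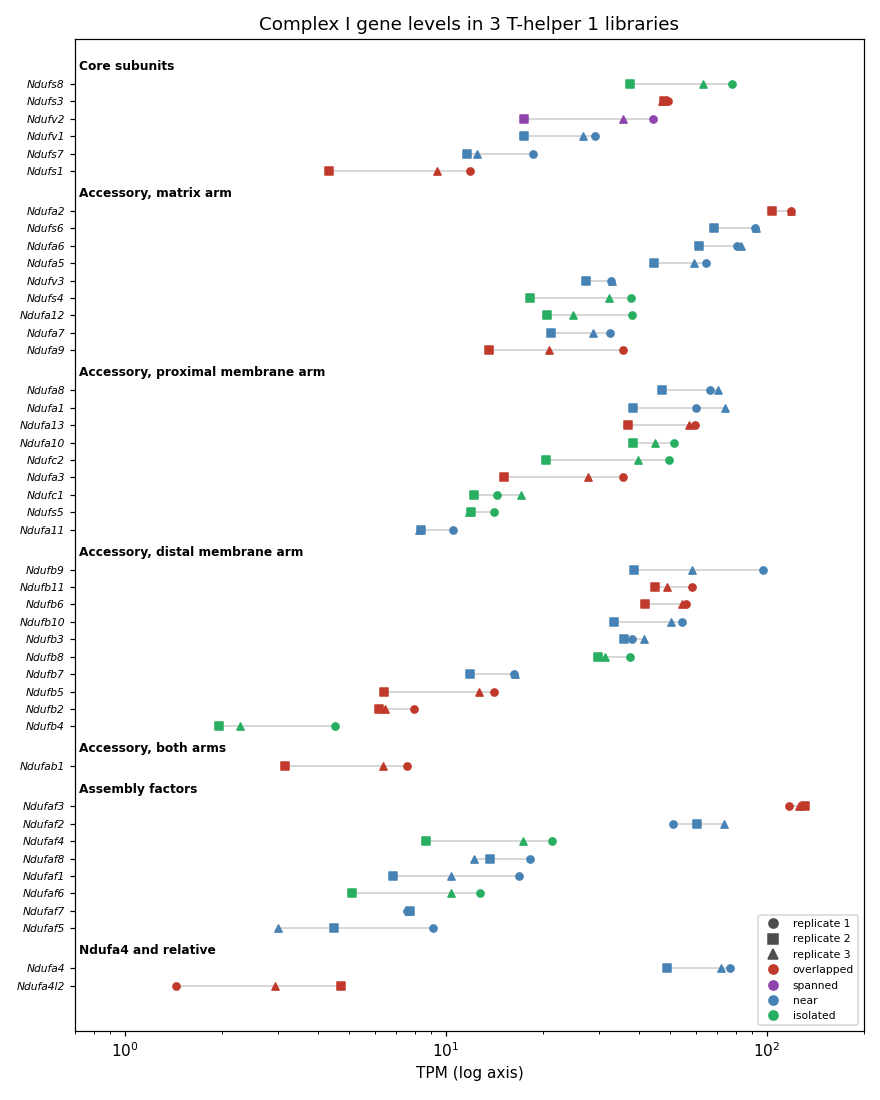
Level of 45 of the 46 complex I genes in each library, in TPM on a log axis, grouped by role and ordered by mean within a role. Circles, squares and triangles are replicates 1, 2 and 3, and the colour gives the gene's position relative to genes on the opposite strand. All symbols lie above 1 TPM, from Ndufa4l2 and Ndufb4 near the bottom to Ndufaf3 at 117 to 132, and the square of replicate 2 is the leftmost symbol for most genes (37 of all 46 in TPM; on the TMM scale replicate 2 was lowest for 22 of 43).

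Assembly factors were compared with subunits within each library, since genes are not replicates of each other. The median of the 36 subunits was 37.9, 23.6 and 34.2 TPM, and that of the 8 assembly factors 17.6, 8.17 and 11.3 TPM. The ranges over libraries did not overlap, and the means were 31.9 ± 7.43 and 12.3 ± 4.78 TPM (SD, n = 3). On the log2(TPM + 1) scale the subunit median exceeded the assembly median by 1.07, 1.42 and 1.52, a mean of 1.335 ± 0.236, and it was above 0 in 3 of 3 libraries. With 3 libraries an exact two-sided sign-flip test cannot go below p = 0.25, so the difference is a description. With the mean of log values in place of the median it was 0.68.

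Mean levels of the assembly factors ran from 5.53 to 125 TPM. Ndufaf3, which acts with Ndufaf4 on the quinone module (ENSMUSG00000070283, chr9:108565537-108567434), had 404, 418 and 426 counts and 117, 132 and 126 TPM, and 0 of 36 subunits had a higher mean. Ndufaf2, which holds the place later taken by its relative Ndufa12 (ENSMUSG00000068184, chr13:108052590-108158625), had 66, 72 and 93 counts and 51.1, 60.6 and 73.3 TPM, and 4 of 36 subunits were higher (Ndufa2, Ndufs6, Ndufa6 and Ndufb9). Ndufaf4 had 159, 59 and 127 counts and 21.4, 8.65 and 17.4 TPM. In that pair of partners, Ndufaf3 was lowest in replicate 1 in TPM and Ndufaf4 lowest in replicate 2.

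Ndufaf8 and Ndufaf5 encode partners that modify Ndufs7, with 29, 20 and 19 counts (14.7 ± 3.18 TPM) and 31, 14 and 10 counts (5.53 ± 3.20 TPM). Ndufaf1, a member of the complex that builds the membrane arm, stood at 11.3 ± 5.06 TPM, and Ndufaf6 at 9.42 ± 3.93 TPM. Ndufaf7, an arginine methyltransferase, had 33, 31 and 33 counts (7.64 ± 0.085 TPM), the smallest spread of all 46 genes in TPM. Counting error alone at these counts is a coefficient of variation of 17.6%, and in TMM-scaled CPM that of Ndufaf7 was 18.3%. Conversely, 7 of 36 subunits had a mean below 13.04 TPM, the median of the assembly factor means: Ndufs1, Ndufa11, Ndufs5, Ndufb2, Ndufb4, Ndufb5 and Ndufab1.

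Ndufa4 and Ndufa4l2, the genes that are members by name only, lay far apart. Ndufa4 had 201, 118 and 186 counts, or 76.6, 48.9 and 72.1 TPM. Ndufa4l2, known as a gene induced by low oxygen, had 3, 9 and 6 counts, or 1.44, 4.70 and 2.93 TPM, near the 3 counts that a count of 0 allows. Its exons share 32 bases with Shmt2, a mitochondrial enzyme of one-carbon metabolism on the other strand, which had 600, 305 and 498 counts.

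The other genes of the pathway were read from lists fixed with earlier results of these data known. All 12 of the other assembly factors matched in the annotation were detected, with a median of 10.99 ± 3.26 TPM, close to the Ndufaf median. Dmac1 (29.1 ± 13.04 TPM) and Ecsit (21.2 ± 2.04 TPM) were the highest of them, and Tmem126b (2.70 ± 0.897 TPM) and Nubpl, which supplies iron-sulfur clusters to complex I (1.91 ± 0.394 TPM), the lowest. The nuclear genes of complexes II to V, 40 in all, had a median of 65.1 ± 15.5 TPM and 38 of 40 were detected. By complex the median was 40.2 ± 9.35 TPM for II, 65.8 ± 15.3 for III, 82.2 ± 21.1 for IV and 69.7 ± 18.1 for V, against 31.9 ± 7.43 for complex I subunits. The highest of the 40 were Atp5f1 (368 TPM, exons overlapping Wdr77) and Atp5b (238 TPM), and the lowest Atp5s (1.68 TPM) and Atp5l (0.950 TPM), all of ATP synthase.

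Of the 7 complex I subunits encoded in mitochondrial DNA, 5 were detected. The gene mt-Nd6, the only mRNA gene on its strand of that DNA, had 20093, 25190 and 26553 counts, while mt-Nd5 on the opposite strand had 4275, 3806 and 5116. Per length these were 25168 and 1309 TPM. The exons of mt-Nd6 and mt-Nd5 share bases, so here too counts cannot be assigned to one gene of the pair. The lowest were mt-Nd3, with 1, 0 and 1 counts, and mt-Nd4l, with 0 counts in each library.

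Gene length in the files is the sum of all annotated exon bases, and for some complex I genes it is far from the length of the main transcript. The 46 genes had a median exon length of 1438 bases, against 3282 for protein-coding genes, with a range of 419 to 8086. For 8 genes it was over 2 times the length of the principal transcript. In Ndufb7, for example, it was 4522 against 623 bases. Computed with principal transcript lengths for all genes, a choice made after seeing the data, Ndufb7 moved from 14.9 ± 2.59 to 90.8 ± 14.7 TPM, and Ndufb8 from 32.9 ± 4.05 to 128 ± 14.3 TPM. The level of Ndufb5 moved from 11.1 ± 4.09 to 43.0 ± 15.4 TPM, Ndufa11 from 9.04 ± 1.25 to 37.1 ± 4.77, Ndufa7 from 27.4 ± 5.74 to 74.3 ± 14.6, and Ndufs1 from 8.52 ± 3.84 to 21.7 ± 9.57. The highest subunits on that scale were Ndufb8, Ndufa2 (95.8 ± 5.93 TPM), Ndufb7, Ndufs3 (84.2 ± 1.54) and Ndufs6 (78.5 ± 12.1). The order of levels between these genes therefore changed with the length used.

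**Figure D3:**
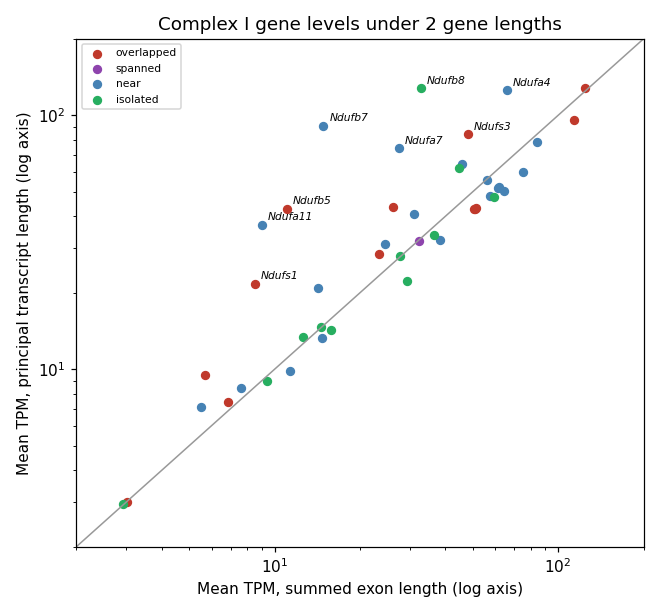
Mean TPM of 45 of the 46 genes with the exon length of the files (horizontal, log axis) and with the principal transcript length (vertical, log axis). Points are genes, coloured by position relative to the opposite strand, and the line marks equal values. The 8 labelled genes, with exon lengths over 2 times the principal transcript, lie well above the line, Ndufb7 the farthest at 14.9 against 90.8.

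Near-identical copies elsewhere in the genome also bear on some counts. Of the 46 genes, 15 had at least 1 stretch of 50 bases in their principal transcript that recurs in an annotated transcript at another locus. The share of such stretches was over 10% in 6 genes: Ndufb4 (37.0%, mainly in Ndufb4c), Ndufs3 (35.8%, Gm12251), Ndufs5 (31.1%, BC002163), Ndufa12 (26.2%, Gm15920), Ndufs6 (14.6%, Ndufs6b) and Ndufab1 (12.3%, Gm4459). For stretches of 100 bases the share was 33.4% in Ndufb4, 19.9% in Ndufs3, 19.8% in Ndufs5, 17.7% in Ndufa12, 9.50% in Ndufab1 and 0% in Ndufs6. Read pairs that lie wholly within shared stretches cannot be told apart between the copies. The levels of these 6 genes are uncertain to that extent, which for Ndufs6 concerns only the shorter stretches. Ndufb4, the lowest subunit, had the highest share.

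Relative to genes on the opposite strand, 14 of the 46 genes were overlapped (exons share bases) and 1 was spanned (gene extents overlap without shared exon bases). Another 20 were near (an opposite gene within 5000 bases) and 11 were isolated. The overlapped class made up 30.4% of complex I genes, against 22.1% of all and 34.3% of detected protein-coding genes. The near class made up 43.5% of complex I genes, against 21.99% of all and 26.8% of detected protein-coding genes, and the isolated class 23.9%, against 44.2% and 28.5%. Median levels over the complex I genes were 33.2 ± 11.3 TPM for overlapped, 34.3 ± 3.51 for near and 26.9 ± 9.75 for isolated genes. Per library the medians were 42.3, 20.5 and 36.9 TPM for overlapped, 35.3, 30.4 and 37.1 for near and 37.5, 18.3 and 24.9 for isolated genes. Overlapped genes were above isolated genes in every library. Near genes were above isolated genes in replicates 2 and 3 and below them in replicate 1. Overlapped genes were above near genes in replicate 1 only. These differences were not tested.

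Paired starts were common. In 20 of the 46 genes (43.5%), the start of a protein-coding gene on the other strand lay within 1000 bases of the gene's own start, against 10.6% of all and 19.6% of detected protein-coding genes. The distances ran from 8 to 967 bases with a median of 93, and 15 of the 20 pairs were within 150 bases. The share was 15 of 36 in subunits and 4 of 8 in assembly factors. In TPM the complex I gene was above its partner in every library in 11 pairs and below it in 6.

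Ndufa8 starts 52 bases from Morn5, and counts were 109, 71 and 113 against 0, 0 and 0. Ndufa5 starts 131 bases from Asb15, which had 1, 0 and 0 counts. In the opposite direction, Ndufaf7 starts 65 bases from Cebpz, a ribosome assembly gene, and had 7.64 ± 0.085 TPM against 121 ± 9.05. Ndufa7 starts 29 bases from the ribosomal protein gene Rps28 and had 27.4 ± 5.74 TPM against 71.9 ± 7.53. Ndufaf5 starts 85 bases from Esf1 and had 5.53 ± 3.20 TPM against 31.4 ± 7.33. A close start therefore went with higher and with lower counts than the partner's.

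In the overlapped pairs, the count of the opposite gene was above that of the complex I gene in every library for 9 of the 14 genes, below it for 2 and mixed for 3, taking all opposite genes of a member together. It was over 9 times the complex I count in every library in 7 of the 14. Summed over the 14, opposite genes had 16351, 15101 and 15918 counts and the complex I genes 2011, 1311 and 1779, a ratio of 8.13, 11.5 and 8.95. The ratio was highest in replicate 2 for 10 of the 14.

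Ndufb5 shares 616 exon bases with Mrpl47, a mitochondrial ribosomal protein gene with 3584, 3664 and 3632 counts. Ndufb6 shares 257 bases with Smim27, which had 2360, 2751 and 2471 counts. Ndufs1 shares 489 bases with the noncoding gene Ino80dos (1804, 1684 and 1705 counts) and 9 with Eef1b2, a translation factor gene (1686, 955 and 1536 counts). All of these opposite counts exceeded the complex I count several-fold in each library.

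Large counts also lay on opposite genes that are not annotated as protein-coding. Ndufa9 shares 67 bases with 1700018A23Rik, which had 1783, 1584 and 1612 counts. Ndufab1 shares 269 bases with Gm44986, which had 1202, 1158 and 1249. Ndufb2 shares 156 bases with Gm16272 (1352, 1450 and 1437 counts) and 146 with the kinase gene Braf (69, 49 and 62 counts). These 3 genes, unlike Braf, held more counts than the complex I gene opposite them in every library.

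Ndufs3 shares 88 bases with Kbtbd4, which had 762, 725 and 674 counts, and Ndufb11 shares 117 with the splicing factor gene Rbm10, which had 434, 285 and 403. Ndufaf3 shares 48 bases with Impdh2, an enzyme gene of guanine nucleotide synthesis. Impdh2 had 522, 278 and 443 counts, above Ndufaf3 in replicates 1 and 3 and below it in replicate 2. Ndufa13 and Tssk6 share 375 bases, and Tssk6 had 121, 145 and 129 counts, above Ndufa13 in replicate 2 only. Ndufa3 shares 4 bases with Tfpt, which had 48, 40 and 46 counts, likewise above it in replicate 2 only.

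Ndufa2 was one of the members whose opposite gene was lower in every library. It shares 60 bases with Tmco6, which had 24, 27 and 19 counts.

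**Figure D4:**
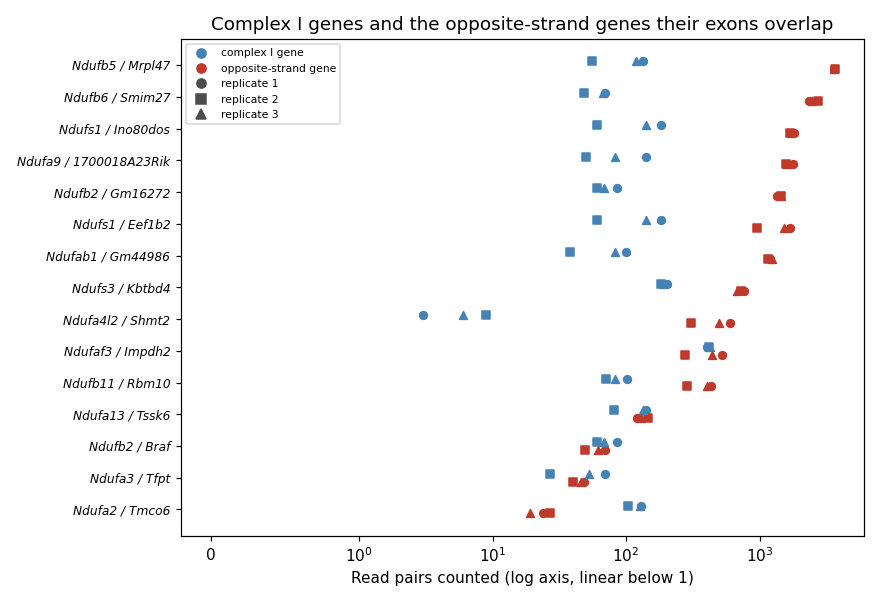
Read pairs counted on each overlapped complex I gene (blue) and on the opposite-strand gene (red), 1 row per pair, on an axis that is logarithmic above 1 and linear below. Circles, squares and triangles are replicates 1, 2 and 3. From Mrpl47 at 3584 to 3664 counts down to Kbtbd4, the opposite gene lies right of the complex I gene in every library, and for Braf and Tmco6 it lies left of it. The plot holds 13 of the 14 overlapped genes.

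With 1 group, the test the design allows is whether the libraries differed beyond counting error, by a chi-square test over 3 TMM-scaled libraries with Benjamini-Hochberg adjustment over 10216 genes. Of the 46 complex I genes, 43 passed the filter on low counts (all but Ndufb4, Ndufaf5 and Ndufa4l2), and 11 of the 43 differed at an adjusted p under 0.05. That share, 25.6%, was below the 37.8% of all genes tested and the 32.2% of protein-coding genes. Without the filter the order turned, with 10 of 46 complex I genes called (21.7%) against 19.3% of all genes. That setting tested 19021 genes in place of 10216, most of the added ones with few counts, and called 3675 in place of 3865. The background and the number of complex I genes tested both changed with this setting, and the reason for the turn was not tested. On the TMM scale replicate 2 was the lowest library for 22 of the 43 (51.2%), beside 55.5% of protein-coding genes. Of the 11, 8 were highest in replicate 1 and lowest in replicate 2, and 3 were highest in replicate 2. The summed CPM of protein-coding genes without an overlap was also lowest in replicate 2, at 312506, 216941 and 289468, and the part of that shift in these calls was not tested.

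Replicate 2 decides most of the calls. Without it, 3 complex I genes were called (Ndufa9, Ndufaf2 and Ndufaf5), of which 2 were among the 11, and 9.03% of all genes tested. Without replicate 1 the number was 6 (25.4% of all genes), and without replicate 3 it was 13 (38.4%). An assignment of these differences to the cells or to the libraries was not tested.

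Core subunits made up 4 of the 11. Ndufs1 had 46.4, 23.5 and 40.9 TMM-scaled CPM, a 1.97-fold range (edgeR TMM sizes, chi-square adjusted p = 0.000106). Ndufv2 had 42.6, 23.5 and 38.1 CPM (1.81-fold, adjusted p = 0.00142). Both were lowest in replicate 2. Ndufs3 ran the other way, with 51.7, 70.2 and 55.3 CPM (1.36-fold, adjusted p = 0.0234), highest in replicate 2.

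Among accessory subunits, 4 of 28 tested were called. Ndufa9 had 36.2, 19.3 and 23.6 CPM (1.88-fold, adjusted p = 0.000398), with replicates 2 and 3 together below replicate 1. Ndufb9 showed the same order, at 30.6, 17.0 and 20.5 CPM (1.80-fold, adjusted p = 0.00319). Ndufb5 had 34.2, 21.6 and 34.01 CPM (1.58-fold, adjusted p = 0.0244) and Ndufab1 25.2, 14.7 and 23.6 CPM (1.72-fold, adjusted p = 0.0374), with only replicate 2 low. Both calls ended under DESeq2 size factors, with chi-square adjusted p = 0.0507 and 0.0678, and under TMM sizes from genes without overlap, with 0.196 and 0.213. None of the 9 accessory subunits of the proximal membrane arm was called, the lowest adjusted p there being 0.103 for Ndufc2.

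The assembly factors gave 3 calls among the 7 tested, in different directions. Ndufaf3 had the smallest p of all complex I genes, with 103, 161 and 123 CPM (1.57-fold, adjusted p = 5.4e-09), highest in replicate 2. Ndufaf2 had 16.8, 27.8 and 26.8 CPM (1.65-fold, adjusted p = 0.0129), with replicate 1 low. Ndufaf4 had 40.5, 22.8 and 36.6 CPM (1.78-fold, adjusted p = 0.00258), with replicate 2 low, and its adjusted p was 0.0521 under TMM sizes from genes without overlap. Impdh2, opposite Ndufaf3, was lowest in the replicate in which Ndufaf3 was highest. By contrast, Kbtbd4, opposite Ndufs3, was highest in the same replicate as Ndufs3, at 194, 280 and 194 TMM-scaled CPM. A link between the counts within such pairs was not tested. In the other lists, the same test called 2 of 12 other assembly factors (Acad9 and Foxred1), 17 of 38 genes of complexes II to V and 5 of 5 mitochondrial complex I genes that passed the filter.

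By position, 7 of 13 overlapped complex I genes were called, beside 43.6% of overlapped protein-coding genes, and 4 of 30 without overlap (13.3%), beside 25.9%. The 4 were Ndufv2, Ndufaf4, Ndufb9 and Ndufaf2. Over the 32 genes not called, the highest library exceeded the lowest by 1.06-fold in Ndufa5 to 1.80-fold in Ndufaf6. In 18 of the 46 genes the coefficient of variation over libraries was below that expected from counting alone. For low-count genes such as Ndufaf6 (30, 11 and 24 counts), a difference of that size was not detectable at this depth.

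**Figure D5:**
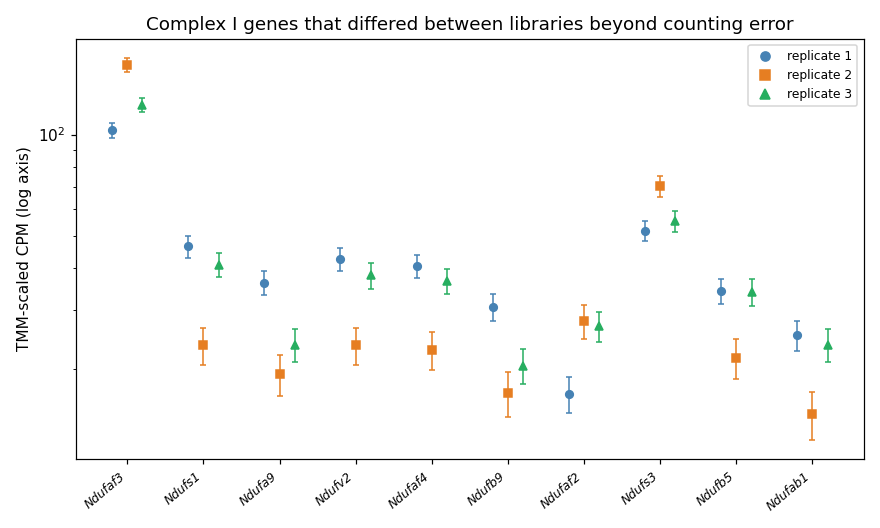
TMM-scaled CPM (log axis) of 10 of the 11 complex I genes that differed between libraries beyond counting error, ordered by p. Circles, squares and triangles are replicates 1, 2 and 3, and bars are the counting error (square root of the count on the same scale). Ndufaf3, Ndufaf2 and Ndufs3 are highest in replicate 2, at 161, 27.8 and 70.2, and in the other 7 genes drawn replicate 2 is lowest.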

How the data were processed

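Gene counts of 3 RNA-seq libraries were analysed. The authors deposited raw read pair counts for each gene, made, per the file headers, with featureCounts 1.4.6-p4 over exons of GENCODE M13 under strand option 1. The build is mm10, per the labels, and no source used here gives an aligner version. Exon lengths and coordinates come from the same files. GENCODE M21 symbols matched 50376 identifiers and left 224 unmatched. TPM, TMM-scaled CPM (edgeR 4.0.16 in R 4.3.3) and a chi-square test against counting error (2 degrees of freedom, genes passing filterByExpr, Benjamini-Hochberg at 0.05) were computed from the counts; the test was tested on simulated data first. Total counts of 2945353 to 3553547 limit precision; a count of 0 allows 3 counts, and errors from counting cover counting only. DESeq2 1.42.0 size factors were an alternative. Promoters came from RefSeq GRCm38.p6. Members, gene lists and motifs were chosen with earlier results of these data known. Genes given in full were the highest 3 and lowest 2 of each role, those overlapping an opposite protein-coding gene and the 10 with the smallest p; the others were described after their values were seen. Values of 1 complex I gene and 1 marker gene are not reported here; counts and medians over groups include them.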

Additional observations from a re-analysis of the deposited data

How the results depend on the processing

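The subunit median stood above the assembly median under every alternative computed. On TMM-scaled counts per kb the medians were 17.6 for subunits and 6.70 for assembly factors, and 18.1, 17.4, 19.2 and 14.6 for overlapped, spanned, near and isolated genes, a scale on which totals differ from TPM by construction. With principal transcript length, chosen after seeing the data, the subunit median was 42.0 TPM and the log2 difference from assembly factors 1.81; with means in place of medians the difference was 0.68. Leaving out each library in turn gave 3 to 13 called complex I genes and 970 to 3934 called genes in all. DESeq2 size factors called 9 of 43 (20.9%, against 35.3% of all genes), TMM over genes without overlap 8 of 43 (18.6%, against 33.1%; 7 of the 11 and Ndufb8), and no filter 10 of 46 (21.7%, against 19.3%). For the 11 called genes taken singly, 35 of the repeated tests stayed under the threshold and 20 did not. No paired analysis was possible because there is 1 group. Depth limits genes with few counts such as Ndufb4 and Ndufa4l2, and the strand of the libraries limits all values.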
